A study of Mus musculus with 4 samples.

Results

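Genes of glycolysis and of the response to low oxygen were followed in cultured mouse prostate fibroblasts, in 1 bulk RNA-seq library for each of 4 conditions. The set holds 37 genes, taken by symbol from the 56748 gene IDs of the count table: 21 genes of glucose uptake, glycolysis and lactate export, and 16 genes of the hypoxia-inducible factor (HIF) response. All 37 were found and all passed a filter of a mean of at least 1 CPM (a count per 1000000 reads). The conditions were BuOE with radiation, PBS (phosphate-buffered saline) with radiation, BuOE alone and PBS alone. The cells came from male C57BL/6 mice (spelled CB57BL/6 in the genotype label) aged 8 to 10 weeks, and the irradiated mice had received 37.5 Gy to the pelvis, under shielding, as 7.5 Gy fractions within 5 days, at 1.2 Gy per minute. Prostates were then minced, digested with collagenase and cultured with serum. BuOE is taken from the chemical name of BMX-001, the radioprotector of the title, which is a manganese porphyrin with superoxide dismutase activity. The labels give neither its dose nor its timing, nor whether mice or cultures received it, and they give no oxygen tension or cell density.

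Cells split glucose to pyruvate in the cytosol and, when oxygen is short, reduce pyruvate to lactate and export it. HIF is a pair of subunits, of which the alpha subunit is hydroxylated by oxygen-dependent prolyl hydroxylases and then degraded. When hydroxylation fails, HIF binds DNA at hypoxia response elements and raises glucose transporters, glycolytic enzymes and many other genes, among them the prolyl hydroxylase genes themselves, which closes a feedback loop.

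The libraries held 25.0 to 35.9 M counts (M, units of 1000000). Fibroblast markers summed to 6830.2, 11382, 7896 and 8788 CPM in the irradiated BuOE, irradiated PBS, BuOE and PBS libraries. Epithelial markers summed to 5986, 3841, 5649.6 and 4524 CPM in that order, so each culture also held epithelial transcripts. The fibroblast sum was lowest and the epithelial sum highest in the irradiated BuOE library, and the reverse held in the irradiated PBS library. Single markers differed in this. Col1a1, Col1a2, Col3a1, Pdgfrb and Vim were lowest in the irradiated BuOE library. Thy1, Lum and Fbln1 were lowest in other libraries, and Pdgfra and Dcn were highest in the irradiated BuOE library. Epcam, Krt18, Cldn4 and Cldn7 were highest in the irradiated BuOE library. Cdh1, Krt8, Krt5, Krt14 and Krt15 were highest in the BuOE library and Krt19 in the PBS library. All 6 lymphocyte markers had a mean under 1 CPM. All 6 macrophage markers had a mean of at least 1 CPM. They summed to 508, 331, 388 and 369.7 CPM in the irradiated BuOE, irradiated PBS, BuOE and PBS libraries. In such bulk libraries fewer cells of a type and less RNA per cell cannot be told apart. With 1 library per condition a ratio compares 2 libraries and has no replicate check. Each log2 ratio below is of CPM scaled by TMM (trimmed mean of M values) with a prior count of 2, and the range after it is a 95% exact binomial interval that covers counting error only.

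The 13 HIF targets were lowest in the PBS library and highest in the irradiated BuOE library without exception, with the irradiated PBS and the BuOE libraries in between. Car9, a carbonic anhydrase of the cell surface, stood at 101 CPM in the irradiated BuOE library, 32.2 CPM in the irradiated PBS library, 56.3 CPM in the BuOE library and 5.28 CPM in the PBS library. Ero1l (now Ero1a), which encodes an oxidase for disulfide formation in the endoplasmic reticulum, stood at 1164 CPM in the irradiated BuOE library, 345 CPM in the irradiated PBS library, 346 CPM in the BuOE library and 72.3 CPM in the PBS library. Depp1, a gene of autophagy control that is also known as a FOXO target, stood at 69.8 CPM in the irradiated BuOE library, 14.7 CPM in the irradiated PBS library, 16.1 CPM in the BuOE library and 2.21 CPM in the PBS library. For all 3 genes the steps between the PBS library and each of the other 3 were far wider than counting error. This order of lowest and highest library held for 15 of the 16 HIF response genes and 10 of the 21 glycolysis genes, and for 16.3% of all 14365 genes kept. The PBS library was the lowest for 30 of the 37 genes and for 30.1% of all genes kept, and the irradiated BuOE library the highest for 29 of the 37 and for 28.4% of all.

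Other targets ran the same way over narrower or similar ranges. Ndrg1, a stress-responsive differentiation gene, had 558 CPM in the irradiated BuOE library, 229.6 CPM in the irradiated PBS library, 292 CPM in the BuOE library and 47.8 CPM in the PBS library. Adm, which encodes the vasodilator peptide adrenomedullin, had 211, 63.6, 56.8 and 22.5 CPM in the irradiated BuOE, irradiated PBS, BuOE and PBS libraries. In the same order of libraries, Ankrd37, an ankyrin repeat gene, had 19.6, 8.59, 9.43 and 2.35 CPM. For Adm the irradiated BuOE library lay 3.31-fold above the irradiated PBS library, and the irradiated PBS and BuOE libraries lay close together.

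The mitophagy receptor gene Bnip3 had 215 CPM in the irradiated BuOE library, 120.4 CPM in the irradiated PBS library, 105 CPM in the BuOE library and 43.5 CPM in the PBS library. Its relative Bnip3l had 199.9, 113, 124 and 74.2 CPM in the same order. Hilpda, which inhibits lipid breakdown at lipid droplets, had 90.9, 44.0, 44.7 and 21.3 CPM in that order too. All 3 genes thus had the irradiated PBS and BuOE libraries close together in the middle. Mxi1, an antagonist of MYC, had 118, 64.3, 66.5 and 35.6 CPM in the irradiated BuOE, irradiated PBS, BuOE and PBS libraries. In the same order, Ddit4, an inhibitor of mTORC1 signalling, had 328, 217, 254 and 123 CPM. The ranges were narrowest for Kdm3a, a histone demethylase gene, with 146, 96.0, 105 and 79.7 CPM, and for Higd1a, which encodes a small protein of the mitochondrial inner membrane, with 70.7, 47.8, 45.5 and 33.3 CPM. In these 4 genes, too, the irradiated BuOE library was the high one and the PBS library the low one.

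**Figure D1:**
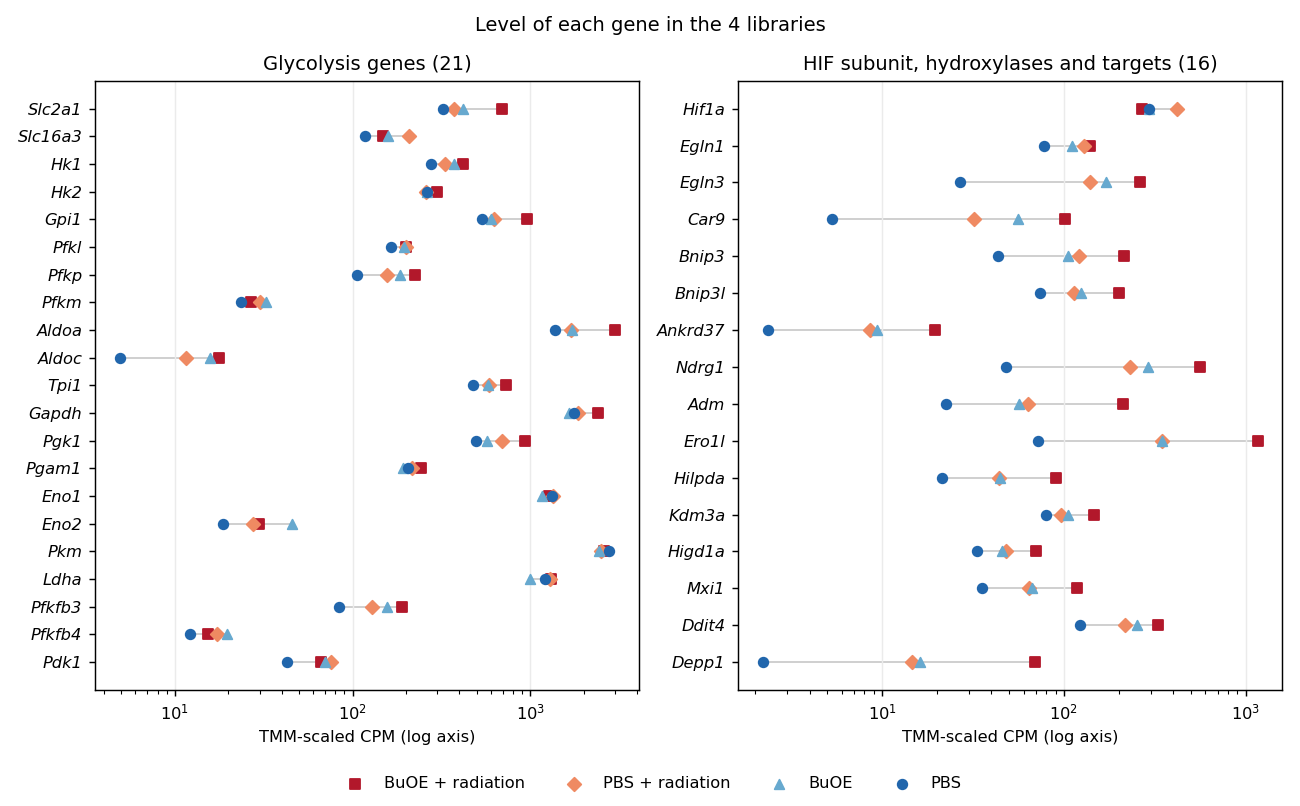
TMM-scaled CPM (log axis) of each gene in the 4 libraries, 1 symbol per library, with a grey line over the range. The PBS library is the lowest and the irradiated BuOE library the highest for all 13 targets from Car9 to Depp1, while Pkm, Eno1 and Ldha lie within narrow ranges.

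Hif1a itself, the gene of the alpha subunit of HIF-1, did not follow the targets. It had 269.7 CPM in the irradiated BuOE library, 418 CPM in the irradiated PBS library, 295 CPM in the BuOE library and 294 CPM in the PBS library. The irradiated PBS library was the high one and the irradiated BuOE library, in which the targets peaked, was the lowest. Genes of other HIF alpha subunits, which are not members, had another order. Epas1 had 104, 92.4, 104 and 66.3 CPM in the irradiated BuOE, irradiated PBS, BuOE and PBS libraries. Hif3a had 4.98, 1.96, 2.61 and 1.43 CPM in that order, and both were lowest in the PBS library. Of the hydroxylase genes, Egln1 (encoding PHD2) had 140 CPM in the irradiated BuOE library, 129 CPM in the irradiated PBS library, 111 CPM in the BuOE library and 77.3 CPM in the PBS library. Egln3 (PHD3) spread much more widely, with 262 CPM in the irradiated BuOE library, 139.5 CPM in the irradiated PBS library, 170.2 CPM in the BuOE library and 26.9 CPM in the PBS library.

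Glycolysis genes lay closer together across the libraries. The hexokinase genes, which trap glucose in the cell, had 417 CPM in the irradiated BuOE library, 332 CPM in the irradiated PBS library, 370.3 CPM in the BuOE library and 275 CPM in the PBS library for Hk1, and 297, 258, 262 and 263 CPM in that order for Hk2. Of the phosphofructokinases, which catalyse the committed step, Pfkl had 200.1 CPM in the irradiated BuOE library, 199 CPM in the irradiated PBS library, 195 CPM in the BuOE library and 164 CPM in the PBS library, and Pfkp had 225, 157, 186 and 106 CPM in that order. The PBS library was thus the low one for Hk1, Pfkl and Pfkp but not for Hk2. Of the minor isozyme genes, Pfkm had 26.9 CPM in the irradiated BuOE library, 30.0 CPM in the irradiated PBS library, 32.5 CPM in the BuOE library and 23.6 CPM in the PBS library, and Aldoc had 17.7, 11.6, 15.7 and 4.90 CPM in that order. Among enzymes of the triose stage, Tpi1 had 735 CPM in the irradiated BuOE library, 587 CPM in the irradiated PBS library, 582 CPM in the BuOE library and 478 CPM in the PBS library. Gapdh, which reduces NAD, had 2400.4, 1864, 1658 and 1759.6 CPM in that order. Pgam1, a mutase, had 244, 216, 192 and 206 CPM, with the BuOE library lowest as for Gapdh. At the end of the pathway Eno1 had 1276 CPM in the irradiated BuOE library, 1348 CPM in the irradiated PBS library, 1168 CPM in the BuOE library and 1319 CPM in the PBS library. Pkm, the pyruvate kinase gene, had 2586, 2515, 2428 and 2779 CPM in that order, and Ldha, which makes lactate, had 1303, 1299, 1003 and 1215 CPM. These 3 late genes were lowest in the BuOE library, and Pkm was the only one of them highest in the PBS library. Per length, the highest member in the irradiated BuOE library was Aldoa at 1978 CPM per kb, and in the other 3 libraries Aldoa, Gapdh and Pkm lay between 913 and 1312 CPM per kb.

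Promoters of the members were searched for the core of the hypoxia response element, ACGTG, on both strands, in RefSeq windows of 300 bases that run from 250 bases before to 50 bases after each annotated start (GRCm38.p6). For 35 of the 37 genes at least 1 window was listed, the others being Bnip3l and Ndrg1. The core occurred in 28 of their 53 windows (52.8%), against 19.6% of all 32851 windows and 24.6% of the 13758 windows of genes kept. The variant GCGTG occurred in 52.8% of the members' windows, against 32.4% of all windows and 49.2% of those of genes kept. Counted by gene, 11 of 14 HIF response genes and 13 of 21 glycolysis genes had an ACGTG in at least 1 window, against 21.8% of all genes with a window and 28.7% of genes kept. Windows of 1 gene can overlap and so share a match. CACGTG holds the core on both strands at once and counts as 2 overlapping matches; it occurred in 9.43% of the members' windows, 7.15% of all windows and 9.62% of those of genes kept. The stretches below run from 150 bases before to 20 after the start of the first listed window, 5′ to 3′, with ACGTG on either strand in capitals. The first 4 belong to HIF targets with wide ranges, and Ldha is the glycolytic enzyme gene with the most matches. Adm and Depp1 are targets with wide ranges and no ACGTG in the whole window. Adm does hold 2 matches to the variant GCGTG, which start 90 and 54 bases before the annotated start and stay in lower case. Depp1 holds neither motif.
Car9: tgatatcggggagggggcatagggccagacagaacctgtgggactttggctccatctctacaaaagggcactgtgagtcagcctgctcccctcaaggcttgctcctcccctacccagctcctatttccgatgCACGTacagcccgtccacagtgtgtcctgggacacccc
Bnip3: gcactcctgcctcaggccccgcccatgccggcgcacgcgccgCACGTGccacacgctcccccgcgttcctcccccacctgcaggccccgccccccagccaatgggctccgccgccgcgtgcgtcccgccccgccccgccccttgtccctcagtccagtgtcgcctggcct
Ankrd37: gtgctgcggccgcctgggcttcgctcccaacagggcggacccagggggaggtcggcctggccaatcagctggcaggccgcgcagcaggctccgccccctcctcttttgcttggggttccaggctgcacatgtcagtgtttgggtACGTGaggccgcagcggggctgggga
Ero1l: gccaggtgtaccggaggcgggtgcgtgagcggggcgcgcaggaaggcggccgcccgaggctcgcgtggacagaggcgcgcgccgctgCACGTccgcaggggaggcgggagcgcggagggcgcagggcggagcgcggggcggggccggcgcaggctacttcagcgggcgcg
Ldha: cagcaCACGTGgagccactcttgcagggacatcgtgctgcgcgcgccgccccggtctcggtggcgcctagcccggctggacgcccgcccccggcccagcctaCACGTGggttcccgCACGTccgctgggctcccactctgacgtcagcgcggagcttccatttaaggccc
Adm: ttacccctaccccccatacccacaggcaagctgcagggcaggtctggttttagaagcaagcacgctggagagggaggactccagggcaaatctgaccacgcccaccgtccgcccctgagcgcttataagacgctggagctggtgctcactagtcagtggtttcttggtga
Depp1: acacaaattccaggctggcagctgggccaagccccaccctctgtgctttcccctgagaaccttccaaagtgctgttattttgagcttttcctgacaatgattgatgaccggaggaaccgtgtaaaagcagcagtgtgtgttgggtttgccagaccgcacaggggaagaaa
In GRCm38.p6 they lie at chr4:43506876-43507045 on the plus strand for Car9, chr7:138909487-138909656 on the minus strand for Bnip3, chr8:45999831-46000000 on the minus strand for Ankrd37, chr14:45318553-45318722 on the minus strand for Ero1l, chr7:46845654-46845823 on the plus strand for Ldha, chr7:110627507-110627676 on the plus strand for Adm and chr6:116650534-116650703 on the plus strand for Depp1. The Car9 match starts 18 bases before the annotated start, the printed one of Ankrd37 6 bases before it and that of Ero1l 63 bases before it. Ldha, which had between 1003 and 1303 CPM in the 4 libraries, holds 5 matches, of which 4 form 2 overlapping pairs. A match is a string of letters and not a shown binding site.

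**Figure D2:**
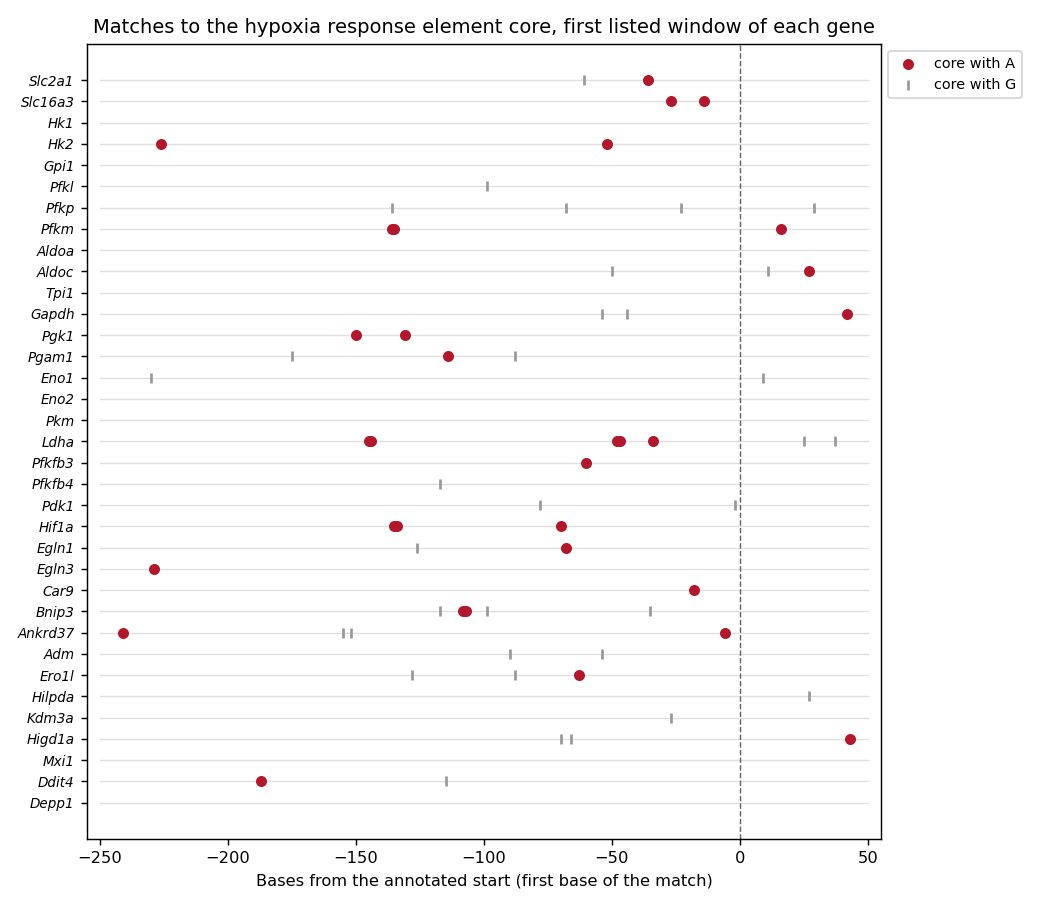
Position of matches to the hypoxia response element core in the first listed window of the 35 genes, as bases from the annotated start (dashed line, at 0). Red points are the core with A and grey ticks the variant with G, on either strand. Car9 and Ankrd37 have a match next to the start. Depp1, Hk1, Gpi1, Aldoa, Tpi1, Eno2, Pkm and Mxi1 have neither motif in this window. Of these, Hk1, Aldoa, Pkm and Mxi1 hold the core with A in another window.

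Radiation in cultures without BuOE was examined by setting the irradiated PBS library against the PBS library. All 16 HIF response genes were higher in the irradiated PBS library than in the PBS library, with a median log2 ratio of 1.25, and 9 were at least 2-fold higher. The median over all genes kept was 0.00. The highest ratios were those of Depp1 (2.70, 2.36 to 3.13), Car9 (2.59, 2.37 to 2.86), Egln3 (2.37, 2.27 to 2.48), Ndrg1 (2.26, 2.18 to 2.35) and Ero1l (2.25, 2.19 to 2.32). Kdm3a had the lowest of the group (0.27, 0.19 to 0.35) and Hif1a stood at 0.51 (0.47 to 0.55). Over the whole set 10 of 37 genes passed 2-fold upwards and 0 downwards. Among all genes kept 5.62% were that much higher and 1.02% that much lower, and among the 9870 with a mean of at least 10 CPM, to which all 37 belong, 2.48% and 0.436%.

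In the PBS arm the median log2 ratio of the glycolysis genes was 0.30, against 1.47 for the 13 HIF targets, with 19 of 21 above 0, against 50.4% of all genes kept. Aldoc, a minor aldolase, was the only one past 2-fold (1.23, 0.96 to 1.52). Slc2a1, the main glucose transporter gene of many cultured cells, had 374 CPM in the irradiated PBS library against 322 CPM in the PBS library (0.21, 0.18 to 0.25). Slc16a3, which encodes the lactate exporter MCT4, had 207 CPM in the irradiated PBS library against 117 CPM in the PBS library (0.82, 0.76 to 0.87). Pdk1, whose product blocks pyruvate dehydrogenase, had 75.5 CPM in the irradiated PBS library against 42.6 CPM in the PBS library (0.82, 0.73 to 0.92). Pfkfb3, which makes the activator of phosphofructokinase, had 128 CPM in the irradiated PBS library against 83.9 CPM in the PBS library (0.61, 0.54 to 0.68). Its relative Pfkfb4 had 17.3 CPM in the irradiated PBS library against 12.1 CPM in the PBS library (0.52, 0.33 to 0.71). Among enzymes the ratios were 0.57 for Pfkp (0.51 to 0.63), 0.56 for Eno2 (0.41 to 0.72) and 0.49 for Pgk1 (0.47 to 0.52). Apart from these and Aldoc, the enzyme genes lay at 0.35 or below, and the lowest ratios above 0 were those of Gapdh (0.08, 0.07 to 0.10), Pgam1 (0.06, 0.01 to 0.11), Eno1 (0.03, 0.01 to 0.05) and Ldha (0.10, 0.08 to 0.12). Eno1 was at 0 with 2 other scalings. Hk2 had an interval that includes 0 (-0.03, -0.07 to 0.02), and Pkm was slightly lower in the irradiated PBS library (-0.14, -0.16 to -0.13).

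In the BuOE arm the same question was put to the irradiated BuOE library against the BuOE library, a pair that shares no library with the first. The 13 HIF targets were again all higher in the irradiated library, with a median log2 ratio of 0.93 against 1.47 in the PBS arm. Over all genes kept 46.2% were higher, and the median was -0.03. Of the targets, 6 were at least 2-fold higher. Depp1 led (2.11, 1.97 to 2.27), before Adm (1.89, 1.81 to 1.97), Ero1l (1.75, 1.72 to 1.78), Ankrd37 (1.05, 0.84 to 1.27), Bnip3 (1.03, 0.97 to 1.10) and Hilpda (1.02, 0.93 to 1.12). Egln3 (0.62, 0.57 to 0.68) and Egln1 (0.34, 0.27 to 0.41) were higher too, and Hif1a was lower (-0.13, -0.18 to -0.08). Those 6 targets were the only ones of the 37 genes past 2-fold, and 0 were that much lower, against 2.27% and 4.94% of all genes kept and 1.20% and 1.82% of those with a mean of at least 10 CPM. With scaling by library size alone the count of 6 was 3. All 6 were also past 2-fold in the PBS arm, which held for 0.557% of all genes kept. A ratio above 0 in both arms was found for 29 of the 37 genes, among them all 13 targets, and for 27.1% of all genes kept.

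Among glycolysis genes of the BuOE arm, 16 of 21 had a ratio above 0, against 46.2% of all genes kept, and none reached 2-fold. The largest ratios belonged to abundant members. Aldoa, the main aldolase, had 2989.5 CPM in the irradiated BuOE library against 1715 CPM in the BuOE library (0.80, 0.79 to 0.82). Slc2a1 had 695 CPM in the irradiated BuOE library against 417 CPM in the BuOE library (0.74, 0.70 to 0.77). Both genes act early in the pathway, at uptake and at the splitting of the sugar. Pgk1, an ATP-forming kinase, had 938 CPM in the irradiated BuOE library against 572 CPM in the BuOE library (0.71, 0.69 to 0.74), and the isomerase gene Gpi1 had 959 CPM in the irradiated BuOE library against 604 CPM in the BuOE library (0.67, 0.64 to 0.70). Gapdh (0.53, 0.52 to 0.55), Ldha (0.38, 0.36 to 0.40), Tpi1 (0.34, 0.31 to 0.37) and Pgam1 (0.34, 0.29 to 0.40) followed. These 8 genes were higher in the irradiated library of both arms. Lower in the irradiated BuOE library were Eno2, the neuronal enolase (-0.61, -0.75 to -0.48), Pfkfb4 (-0.36, -0.55 to -0.17), Pfkm, the muscle phosphofructokinase (-0.27, -0.41 to -0.13), and Slc16a3 (-0.09, -0.15 to -0.03), which turned to 0.03 with upper-quartile scaling. Pdk1 had an interval that includes 0 (-0.06, -0.16 to 0.03).

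**Figure D3:**
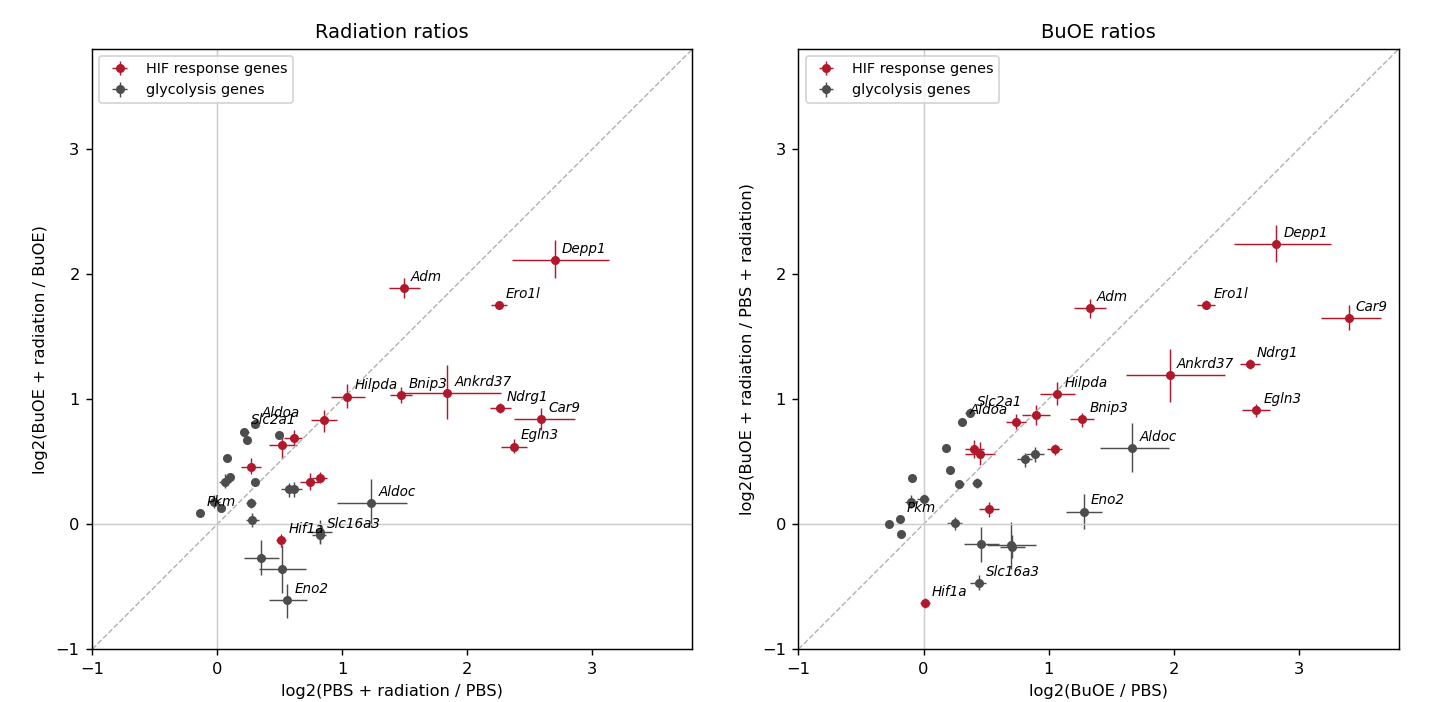
Log2 ratios of the 37 genes with 95% intervals of counting error; the left panel sets the radiation ratio of the BuOE arm against that of the PBS arm, and the right panel the BuOE ratio after radiation against that without radiation. On the left, Egln3, Car9 and Ndrg1 lie far below the dashed line of equal ratios, while Aldoa and Slc2a1 lie above it.

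BuOE was compared with PBS in unirradiated cultures next, and this pair shares the PBS library with the first comparison. All 16 HIF response genes had ratios of at least 0.01, with a median of 1.17, and 10 were at least 2-fold higher in the BuOE library. Over all genes kept 48.8% had a ratio above 0, and the median was -0.01. Car9 had the highest ratio of the set (3.40, 3.18 to 3.66), and Depp1 (2.82, 2.48 to 3.26), Egln3 (2.66, 2.55 to 2.77), Ndrg1 (2.61, 2.53 to 2.69) and Ero1l (2.26, 2.19 to 2.33) came next. Hif1a was at 0.01, with an interval that includes 0 (-0.03 to 0.05). Of the 37 genes, 12 passed 2-fold upwards and 0 downwards, against 8.72% and 4.23% of all genes kept and 4.39% and 3.43% of those that average at least 10 CPM. The 2 glycolysis genes among the 12 were Aldoc (1.67, 1.41 to 1.96) and Eno2 (1.28, 1.14 to 1.43). Pfkfb3 (0.89, 0.82 to 0.96), Pfkp, the platelet-type phosphofructokinase (0.81, 0.75 to 0.87), Pdk1 (0.71, 0.61 to 0.81) and Pfkfb4 (0.70, 0.51 to 0.90) stayed under 2-fold. The late enzymes of the pathway were slightly lower in the BuOE library, namely Ldha (-0.28, -0.30 to -0.26), Pkm (-0.19, -0.21 to -0.18), Eno1 (-0.18, -0.20 to -0.15) and Pgam1 (-0.10, -0.15 to -0.05). Gapdh was also lower (-0.09, -0.10 to -0.07) but stood at 0 with scaling by library size alone.

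After radiation the irradiated BuOE library was set against the irradiated PBS library, which bears on the effect of BuOE in irradiated tissue that the series title names. The 13 HIF targets were all higher in the irradiated BuOE library (median 1.04), against 43.8% of all genes kept (median -0.07). Of the 13, 7 were at least 2-fold higher. They were Depp1 (2.24, 2.10 to 2.39), Ero1l (1.75, 1.72 to 1.79), Adm (1.73, 1.65 to 1.80), Car9 (1.65, 1.55 to 1.75), Ndrg1 (1.28, 1.24 to 1.32), Ankrd37 (1.19, with a lower bound of 0.98) and Hilpda (1.04, 0.95 to 1.14). These made up all of the 7 genes of the set past 2-fold, and 0 were that much lower, against 3.81% and 5.92% of all genes kept and 2.48% and 3.52% of those with a mean of at least 10 CPM. Hif1a (-0.63, -0.67 to -0.59) and Slc16a3 (-0.47, -0.53 to -0.41) had the lowest ratios of the set. Among glycolysis genes Slc2a1 (0.89, 0.86 to 0.93), Aldoa (0.82, 0.80 to 0.83) and Gpi1 (0.61, 0.58 to 0.64) were higher in the irradiated BuOE library. Ldha (0.00, -0.02 to 0.03) and Pfkl, the liver-type phosphofructokinase (0.01, -0.05 to 0.06), had intervals that include 0.

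The radiation ratios of the arms were then subtracted, the BuOE arm minus the PBS arm, with a normal interval from the summed counting variances. For 20 of 37 genes the interval lay below 0 and for 12 above it, against 31.1% and 26.3% of all genes kept. These shares are not matched for level: all 37 genes average at least 10 CPM, and intervals are wider at lower counts. The lowest differences were those of Egln3 (-1.75, -1.87 to -1.63), Car9 (-1.75, -2.01 to -1.49), Ndrg1 (-1.33, -1.42 to -1.24), Eno2 (-1.18, -1.38 to -0.98) and Aldoc (-1.06, -1.39 to -0.73). These 5 were the only ones past 2-fold; 0 were at least 2-fold higher, against 8.76% of all genes kept that were lower and 2.70% that were higher, and against 3.95% and 1.34% of those with a mean of at least 10 CPM. At the other end stood Slc2a1 (0.52, 0.47 to 0.57), Aldoa (0.50, 0.48 to 0.53), Gapdh (0.45, 0.43 to 0.47), Gpi1 (0.43, 0.39 to 0.47) and Adm (0.40, 0.25 to 0.54). Hilpda (-0.02, -0.19 to 0.14) and Mxi1 (-0.03, -0.16 to 0.11) had nearly equal radiation ratios in both arms. With 1 library per condition this difference has no test among libraries.

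**Figure D4:**
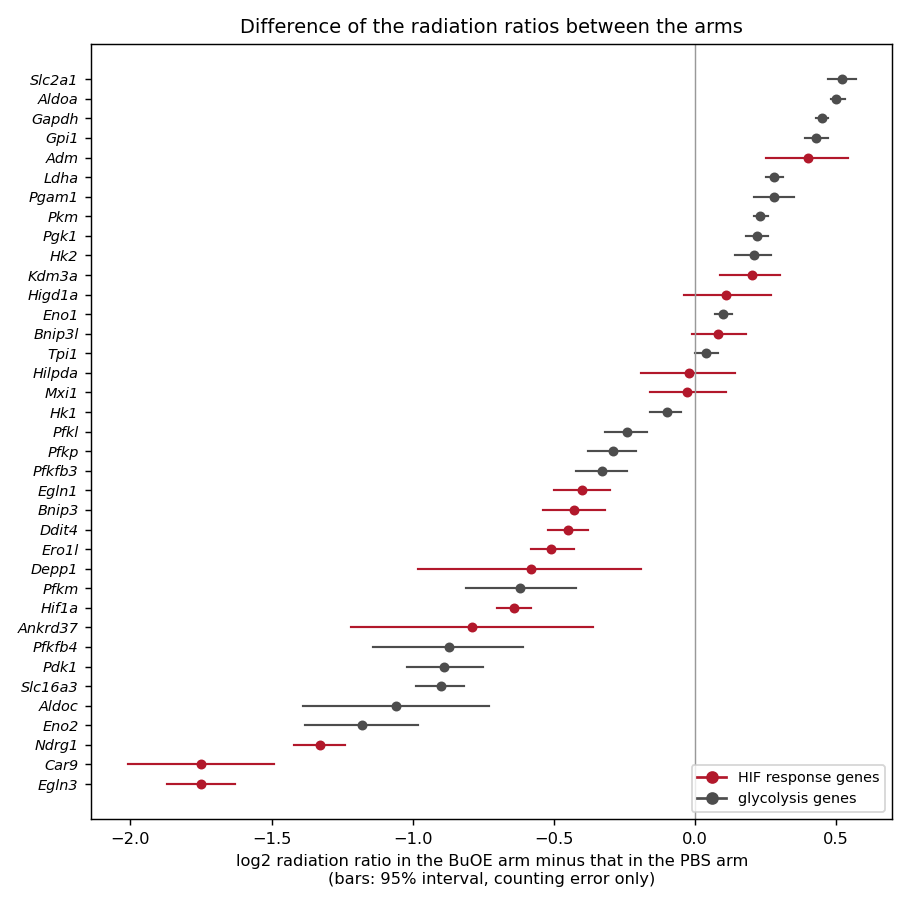
Log2 radiation ratio in the BuOE arm minus that in the PBS arm for each gene, sorted, with 95% intervals of counting error; red marks HIF response genes and grey glycolysis genes. Egln3 and Car9 lie lowest at -1.75, and Slc2a1 and Aldoa highest at 0.52 and 0.50.

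Levels were compared between isozymes per kilobase of the longest principal transcript, as shares of the family's summed CPM per kb. Among the HIF prolyl hydroxylase genes, Egln3 made up 63.5% in the irradiated BuOE library, 49.1% in the irradiated PBS library, 54.9% in the BuOE library and 18.0% in the PBS library. Egln2, which is not a member and is known as a poor HIF target, made up 11.3%, 17.2%, 18.6% and 43.6% in the same order. The makeup of this family thus differed most between the PBS library and the other 3. Among phosphofructokinases the share of Pfkp was 46.3% in the irradiated BuOE library, 37.2% in the irradiated PBS library, 41.3% in the BuOE library and 32.8% in the PBS library, while Pfkl made up 45.8%, 52.5%, 48.3% and 56.6%. Hk1 was the leading hexokinase gene with 57.4% to 64.3%, and Hk2 made up 31.7% to 38.3%. Aldoa held at least 99.5% of aldolase, Eno1 at least 96.6% of enolase and Ldha at least 97.9% of the sum of Ldha and Ldhb. Aldoc and Eno2 had the widest ratios among enzymes for BuOE without radiation (1.67 and 1.28), but added little to their steps. Aldoa itself had the widest enzyme ratio for radiation in the BuOE arm (0.80) and for BuOE after radiation (0.82). Among the pyruvate dehydrogenase kinases, Pdk1 made up 20.2% in the irradiated BuOE library, 34.0% in the irradiated PBS library, 27.6% in the BuOE library and 19.7% in the PBS library, and Pdk4, a kinase gene known to respond to fasting and FOXO, 51.9%, 22.2%, 38.1% and 38.5%.

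**Figure D5:**
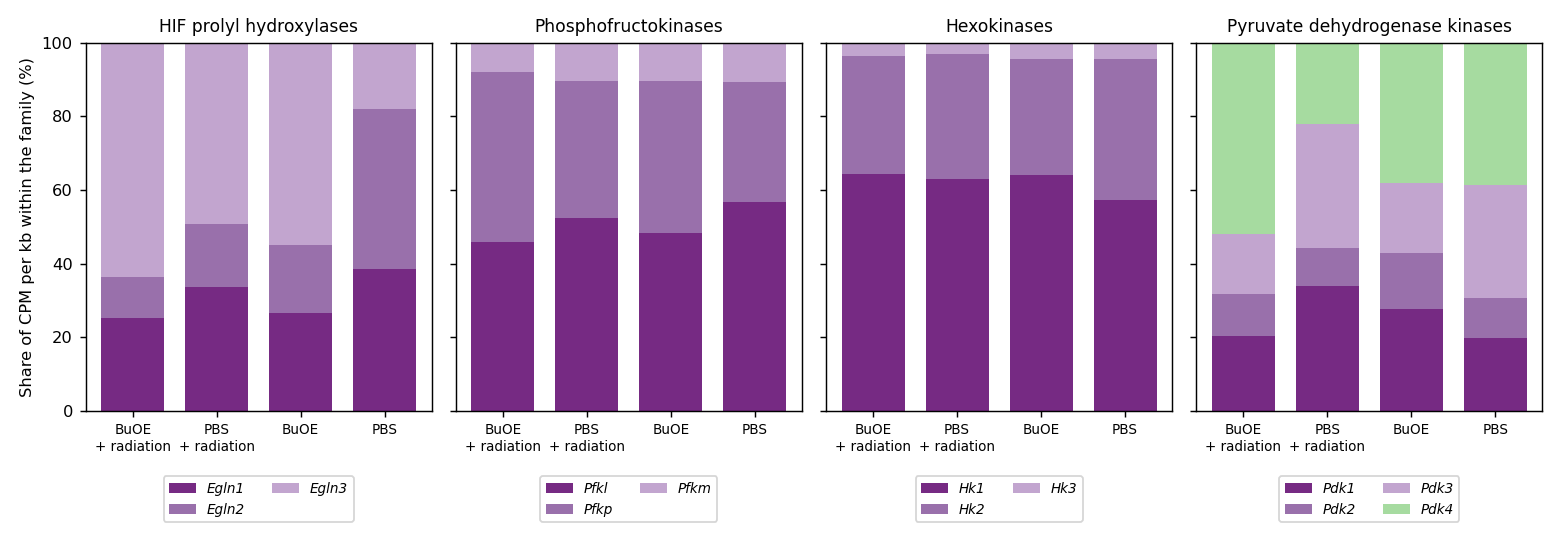
Share (%) of each gene in the CPM per kb summed over its family, in the 4 libraries. Egln3 makes up 63.5% of the prolyl hydroxylases in the irradiated BuOE library and 18.0% in the PBS library, while the hexokinases keep similar shares.

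Summed over the 16 enzymes, levels were 14645 CPM in the irradiated BuOE library, 11865 CPM in the irradiated PBS library, 11029 CPM in the BuOE library and 11019 CPM in the PBS library. The sum over the 13 HIF targets was 3290.2, 1396, 1522 and 563 CPM in the irradiated BuOE, irradiated PBS, BuOE and PBS libraries. The enzyme sum therefore differed between the BuOE and PBS libraries by far less than the sum of the targets did. Reads of Gapdh, Eno1, Ldha, Pgam1 and Pgk1 can be shared with pseudogenes or near-identical copies, so their values are uncertain to that extent.

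Markers of other cell types moved between the same libraries. Neuronal markers, of which all 10 reached a mean of 1 CPM, summed to 94.0 CPM in the irradiated BuOE library, 262 CPM in the irradiated PBS library, 916 CPM in the BuOE library and 122 CPM in the PBS library. Uchl1 alone gave 58, 81.9, 144 and 90.5 CPM of these sums in that order. Uchl1, Gap43, Tubb3 and Nos1 were lowest in the irradiated BuOE library, but Stmn2, Prph, Syt4, Vip, Elavl4 and Snap25 in the PBS library. Eno2, itself a neuronal enolase, had 29.7 CPM in the irradiated BuOE library, 27.7 CPM in the irradiated PBS library, 45.5 CPM in the BuOE library and 18.7 CPM in the PBS library. The neuronal sum and Eno2 were both highest in the BuOE library, and the part of neuronal transcripts in the values of Eno2 was not tested. Endothelial markers summed to 866 CPM in the irradiated BuOE library, 901 CPM in the irradiated PBS library, 713 CPM in the BuOE library and 490.0 CPM in the PBS library. Adipocyte markers gave sums of 224, 196, 178 and 573 CPM and proliferation genes sums of 372, 1129, 510.5 and 1266 CPM, library by library in that order. All 8 endothelial, 7 adipocyte and 7 proliferation genes reached a mean of 1 CPM. Of the skeletal muscle markers 5 of 6 reached that mean. The list summed to 164, 88.7, 94.4 and 54.6 CPM in the irradiated BuOE, irradiated PBS, BuOE and PBS libraries. This sum was lowest and highest in the same libraries as the HIF targets. Most of it was Des, with 145, 58.9, 85.6 and 38.2 CPM in that order. Acta1 (13.2, 9.74, 6.13 and 5.52 CPM) had the same lowest and highest library. Myod1 (0.329, 5.22, 0.396 and 4.19 CPM), Myog (0, 3.37, 0 and 1.16 CPM) and Ttn (4.57, 10.9, 2.21 and 5.59 CPM) were instead highest in the irradiated PBS library. Schwann cell markers gave sums of 196, 258, 429.9 and 109 CPM and pericyte markers sums of 432, 445, 589 and 370.1 CPM in that order, both lowest in the PBS library. The pericyte gene Cspg4 ran against its sum, with 152, 201, 239.9 and 275 CPM, and Notch3 was lowest in the irradiated PBS library. The share of counts from mitochondrially encoded mRNAs was 2.64% in the irradiated BuOE library, 0.864% in the irradiated PBS library, 0.725% in the BuOE library and 0.403% in the PBS library, so it too was lowest in the PBS and highest in the irradiated BuOE library. The part of cell makeup, growth state or mitochondrial RNA in the ratios of the HIF targets was not tested.

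Other genes of the HIF pathway were read from a list of 30, of which 29 passed the filter. In the PBS arm 20 had a ratio above 0 and 3 were at least 2-fold higher, in the BuOE arm 22 and 3. Of all genes kept, 50.4% had a ratio above 0 and 5.62% were at least 2-fold higher in the PBS arm, and 46.2% and 2.27% in the BuOE arm. Their median log2 ratio was 0.39 in the PBS arm and 0.42 in the BuOE arm. Pgf, which encodes placental growth factor, was the highest in both, with 116 CPM in the irradiated BuOE library, 35.1 CPM in the irradiated PBS library, 37.5 CPM in the BuOE library and 9.37 CPM in the PBS library. That is the order of the targets described above. Vegfa, the main angiogenic growth factor gene of the list and its most abundant member, had 1179, 798, 757 and 539 CPM in the same order, and Bhlhe40, a transcriptional repressor of the circadian clock, 674, 345, 414 and 249 CPM. Against that order, Angptl4, a lipoprotein lipase inhibitor also driven by PPAR factors, had 95.6 CPM in the irradiated BuOE library, 119 CPM in the irradiated PBS library, 97.5 CPM in the BuOE library and 179.7 CPM in the PBS library. Car12, a further carbonic anhydrase, had 3.00 CPM in the irradiated BuOE library, 4.55 CPM in the irradiated PBS library, 7.65 CPM in the BuOE library and 4.90 CPM in the PBS library.

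The other isoforms and transporters of glycolysis, 20 of 25 past the filter, showed no common direction. With radiation, 11 had a ratio above 0 in the PBS arm and 12 in the BuOE arm, with medians of 0.03 and 0.05. Of all genes kept, 50.4% and 46.2% had a ratio above 0 in these arms. For BuOE, 12 had a ratio above 0 without radiation and 12 after it, with medians of 0.22 and 0.21. The shares of all genes kept were 48.8% and 43.8%. Pdk4 had 115 CPM in the irradiated BuOE library, 33.1 CPM in the irradiated PBS library, 64.6 CPM in the BuOE library and 56.0 CPM in the PBS library, so its radiation ratio was -0.76 in the PBS arm and 0.83 in the BuOE arm. Slc16a1, the broadly expressed lactate transporter MCT1, had 71.2, 61.5, 58.0 and 59.7 CPM in the same order, and Slc16a7, a pyruvate transporter, 4.61, 5.16, 6.70 and 2.42 CPM.

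An additive model with a term for radiation and a term for BuOE was also fitted to the 4 libraries. It leaves 1 residual degree of freedom and counts any difference between the arms as error. The edgeR quasi-likelihood test called 0 of 37 genes for either term, and 0% of all genes. The smallest Benjamini-Hochberg adjusted p of a member was 0.663 for radiation and 0.0908 for BuOE, in edgeR's test. At an unadjusted p under 0.05 in that test, 18 members were higher for radiation and 18 higher for BuOE, against 4.18% and 9.06% of all genes, and no member was lower. DESeq2 called 9 members higher for radiation, against 0.452% of all genes kept, and 15 higher for BuOE, against 3.12% of the 12415 genes to which it gave an adjusted p, while limma-voom called 0 of both. No member was called lower by DESeq2, against 0.209% of genes for radiation and 4.05% for BuOE over the same totals. The 9 were Egln3, Car9, Bnip3, Ndrg1, Adm, Ero1l, Hilpda, Mxi1 and Depp1, with no glycolysis gene among them. The 15 for BuOE included 3 glycolysis genes, Slc2a1, Pfkp and Pfkfb3. With a filter of 10 CPM edgeR called 7 members and 400 genes for BuOE, so the calls of this model depend on the tool and on the filter.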

How the data were processed

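RNA of cultured mouse prostate fibroblasts was measured by bulk RNA-seq in 4 libraries, grouped by the treatment in the labels. The deposited values are the authors' raw counts of reads per gene, and featureCounts is the counter named in the submitters' processing notes. Those notes list Trim Galore 0.6.4, FastQC, Salmon 1.4.0, edgeR 4.2.2 and the build GRCm39 without their roles. Strand and multimapping settings are not given in the sources used here.

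Symbols and principal transcript lengths came from GENCODE M21 by Ensembl ID, and 4623 of 56748 IDs had no symbol. A symbol with several IDs took the ID with the most counts, which applied to Aldoa. Counts were scaled by TMM (edgeR 4.0.16, R 4.3.3), genes averaging 1 CPM or more were kept, and log2 ratios used a prior count of 2. Genes past 2-fold were counted without a test. The additive model was fitted with edgeR, DESeq2 1.42.0 and limma 3.58.1 with a threshold of 0.05 on the adjusted p. The ratio and model steps were run on simulated counts in which radiation acted alike in both arms, unlike these data. Limits were set only for the ratio in the PBS arm and its interval, under counting error alone, and none for the model. Promoter windows are RefSeq's and carry GRCm38.p6 coordinates; none was used for counting.

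Members and lists were chosen with earlier results of these data known, and all members are named. Of each other list, the rule names its 2 most abundant genes and the highest and lowest ratio in each arm. Epas1 and Hif3a were named besides. Nothing says whether a library held cells of 1 mouse or of several. Alternatives changed 1 choice at a time: scaling, filter, prior count, mitochondrial genes and tool.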

Additional observations from a re-analysis of the deposited data

Results flagged for a closer look

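Radiation ratios ran in opposite directions in the arms, beyond counting error in both, for 6 genes. This difference between arms was not tested among libraries, since each condition has 1. The log2 ratio of the BuOE arm minus that of the PBS arm was -0.90 for Slc16a3, -0.62 for Pfkm, -1.18 for Eno2, -0.87 for Pfkfb4, -0.64 for Hif1a and 0.23 for Pkm. Hif1a, Slc16a3, Eno2, Pfkm and Pfkfb4 were lower in the irradiated library of the BuOE arm and higher in that of the PBS arm, while Pkm ran the other way. The radiation ratio of Slc16a3 in the BuOE arm lay above 0 with upper-quartile scaling (0.03), and that of Pkm below 0 with library size alone (-0.02).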

How the results depend on the processing

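Across 1295 values of single members under 7 alternatives of scaling, filter and prior count, the largest move was 0.15 on the log2 scale. Signs changed 25 times, in 15 genes, and only where the ratio lay within 0.11 of 0. The count of members at least 2-fold higher with radiation in the BuOE arm was 6, and 3 with library size alone. Among glycolysis genes, the count at least 2-fold lower in the difference between arms was 2, with 4 under library size alone and 1 under upper-quartile factors, and upper-quartile factors put 1 past 2-fold for BuOE after radiation, against 0. The other counts of members past 2-fold stayed within 1.5 times. Scaling by library size alone put the median of all genes at -0.15 in the BuOE arm, against -0.03 with TMM, and ratios under it are relative to that. For the difference between arms that median was -0.15 with library size alone and 0.11 with upper-quartile factors, against -0.03. Of all genes past 2-fold in the BuOE arm, 31.5% were higher, with 44.1% under upper-quartile factors and 21.3% under library size alone. For BuOE after radiation the share was 39.2%, with 53.4% under upper-quartile factors, and for the difference between arms 23.6%, with 34.4%. In the additive model DESeq2 called 9 members for radiation and 15 for BuOE, and edgeR on genes that average 10 CPM or more called 7 for BuOE, against 0; the cause was not tested. Over all genes DESeq2 called 95 and 890, and edgeR with that filter 400 for BuOE. Filters changed which genes were counted. Without one, the genes past 2-fold upwards and downwards were 2330 and 1404 for radiation in the PBS arm (807 and 146 in the report), 2171 and 2009 in the BuOE arm (326 and 709), 2850 and 2373 for BuOE without radiation (1253 and 607), 2343 and 2241 after radiation (548 and 851) and 3043 and 4048 for the difference between arms (388 and 1258). With 10 CPM they were 245 and 43, 118 and 180, 433 and 339, 245 and 347, and 132 and 390 in that order. No paired analysis was possible because each group has 1 library. Leaving out a library ends its comparisons and leaves the additive model no residual degree of freedom. Alternatives for single genes, subgroups and all genes were chosen after seeing the data. The lowest count of a member was 65 reads, for Depp1 in the PBS library, where depth limits the ratios most.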

Other observations

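Routes that use pyruvate and glucose 6-phosphate otherwise were read from 4 lists. None of the 12 citric acid cycle genes was past 2-fold in any comparison. A ratio below 0 was found for 10 of 12 with radiation in the PBS arm, 7 in the BuOE arm, 12 for BuOE without radiation and 10 after radiation, against 49.6%, 53.8%, 51.2% and 56.2% of all genes kept, so the count in the BuOE arm is near that of all genes. Cs, which encodes citrate synthase, had 254 CPM in the irradiated BuOE library, 286 CPM in the irradiated PBS library, 262 CPM in the BuOE library and 344 CPM in the PBS library, and Mdh2 had 188, 225, 201 and 267 CPM in that order. The highest radiation ratio was that of Sucla2 in the PBS arm (0.09, 0.01 to 0.18) and of Suclg2 in the BuOE arm (0.49, 0.37 to 0.61), and the lowest that of Cs in the PBS arm (-0.27, -0.31 to -0.23) and of Ogdh in the BuOE arm (-0.29, -0.35 to -0.23). The 7 pyruvate dehydrogenase and carrier genes had medians of -0.11 and -0.06 for radiation in the PBS and BuOE arms. Pdha1 had 153, 182, 159 and 196 CPM in the irradiated BuOE, irradiated PBS, BuOE and PBS libraries, and Dlat had 70.8, 84.9, 79.3 and 90.0 CPM. Dld had the highest radiation ratio in both arms (0.23 in the PBS arm and 0.18 in the BuOE arm) and Pdhx the lowest (-0.27 and -0.45).

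Of the pentose phosphate genes, Pgd had 298 CPM in the irradiated BuOE library, 375 CPM in the irradiated PBS library, 334 CPM in the BuOE library and 526 CPM in the PBS library. Tkt had 275, 273, 274 and 318 CPM in that order. Taldo1 had 372, 218, 276 and 244 CPM, so the library that was lowest for Pgd was the highest for Taldo1. Rpia was highest in the PBS arm, at 0.02 (-0.15 to 0.20), and Pgls lowest in the BuOE arm, at -0.30 (-0.47 to -0.14). Among 14 glycogen and gluconeogenesis genes past the filter, Pygb had 137, 106, 153 and 121 CPM in the irradiated BuOE, irradiated PBS, BuOE and PBS libraries, and Pgm1 had 137, 143, 127 and 106 CPM. Pygm, the muscle glycogen phosphorylase, had 1.81, 1.88, 2.87 and 1.02 CPM in that order. Pck1, a gluconeogenic gene of liver and fat, had 0.206 CPM in the irradiated BuOE library, 0.0561 CPM in the irradiated PBS library, 0.066 CPM in the BuOE library and 4.29 CPM in the PBS library. The sum of the adipocyte markers was also highest in the PBS library, at 573 CPM. Among these markers Pparg was instead highest in the irradiated BuOE library, with 18.9 CPM against 11.2 CPM in the PBS library. The part of adipocyte transcripts in the values of Pck1 was not tested.

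FOXO factors and their targets were listed because Depp1 and Ddit4 are known to respond to them. Of the 11 genes, 9 were lowest in the PBS library and highest in the irradiated BuOE library, against 16.3% of all genes kept. Txnip, an inhibitor of thioredoxin that also responds to glucose, had 976 CPM in the irradiated BuOE library, 295 CPM in the irradiated PBS library, 499 CPM in the BuOE library and 259 CPM in the PBS library. Foxo3 had 209, 111, 149 and 90.1 CPM in the same order, and Ccng2, a cyclin of arrested cells, 67.7, 47.0, 48.7 and 29.1 CPM. Sesn3, a stress-induced sestrin gene, had another order, with 75, 71.3, 101 and 73.4 CPM, and the lowest radiation ratio of the list in both arms, at -0.04 (-0.13 to 0.04) in the PBS arm and -0.43 (-0.52 to -0.35) in the BuOE arm. With radiation none of the 11 passed 2-fold in either arm (medians 0.29 and 0.36). For BuOE the medians were 0.54 after radiation and 0.73 without it. At least 2-fold higher were 2 genes after radiation, against 3.81% of all genes kept, and 1 gene without it, against 8.72%, a share close to that of the list.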
